A study of Mus musculus with 2 samples.

Results

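The 10 genes described here belong to the bone morphogenetic protein (Bmp) and transforming growth factor beta (Tgf-beta) pathways and were followed across the cells of neonatal mouse epidermis. They are the ligands Bmp2, Bmp4, Bmp7, Tgfb1 and Tgfb2, the receptors Bmpr1a, Tgfbr1 and Tgfbr2, and Id1 and Id3, which respond to Bmp signals. Members were taken by gene symbol, and all 10 were found among the 27998 genes of both count matrices. The libraries came from the epidermis of 2 male C57BL/6J mice at postnatal day 0, and both mice were Chrm3 KO, that is, they lacked the M3 muscarinic acetylcholine receptor. Epidermis had been taken off the dermis and dead cells had been removed before capture. The knockout was not limited to a tissue by the labels, and no WT library was analysed here, so every comparison is between cell classes of Chrm3 KO skin and none is a genotype effect. Each mouse gave 1 single-cell RNA-sequencing (scRNA-seq) library. The p-values rest on the spread between these 2 libraries pooled over 16 cell classes, with 16 residual degrees of freedom. Classes of 1 mouse share its library and were fitted without a mouse term, so a small p-value does not stand for more than 2 animals.

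Bmp ligands bind receptors such as the one encoded by Bmpr1a, which phosphorylate SMAD proteins that switch on Id genes. Id proteins block basic helix-loop-helix transcription factors. Tgf-beta ligands are secreted in a latent form, which integrins can activate for some of them. The active ligands bind the receptor pair encoded by Tgfbr2 and Tgfbr1, which acts through another set of SMADs. In skin, Bmp signals take part in hair follicle (HF) patterning and hair shaft differentiation, Tgf-beta signals restrain keratinocyte (KC) division, and Langerhans cells depend on Tgf-beta to stay in the epidermis.

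After quality control 7607 cells of mouse 1 and 11881 of mouse 2 remained, with median depths of 10480 and 10577 unique molecular identifiers (UMIs) per cell. The libraries shared 34 barcodes among the kept cells. Cells fell into 16 named classes, and 10.1% stayed unnamed. Members and 57 further pathway genes were left out of the clustering and naming, so the classes do not rest on them. Chrm3 gave 13 UMIs in mouse 1 and 19 in mouse 2 (0.137 and 0.128 CPM), with no control library to set beside them. Class names were checked for detection of their markers, that is, any UMI in the class sum. Detection does not set classes apart, as all 8 markers of basal KCs were also detected in Langerhans cell-like, T cell-like and melanocyte-like cells. The Langerhans cell-like class showed all 12 of its markers in mouse 1 and 11 in mouse 2, where Cd207, which encodes langerin, was at 0. C1qa, C1qb and C1qc, listed markers that macrophages can also express, were among its 10 leading genes. Langerhans cells were not told apart from their precursors or from macrophages. Among the dermal-like cells 7 and 6 of 7 dermal markers were detected, none of them among the 10 leading genes, and Pdgfrb was at 0 in mouse 2. The terminally differentiated class carried markers of other cells, described with its results.

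Every member has a position in GENCODE M21 on GRCm38 (mm10), and all 10 are protein coding. On the plus strand lie Bmp2 (chr2:133552159-133562885), Id1 (chr2:152736251-152737410), Id3 (chr4:136143497-136145755), Tgfbr1 (chr4:47353222-47414931) and Tgfb1 (chr7:25687002-25705077). The minus strand holds Bmp4 (chr14:46383520-46390669), Bmp7 (chr2:172868012-172940321), Bmpr1a (chr14:34410734-34503341), Tgfb2 (chr1:186622792-186705989) and Tgfbr2 (chr9:116084293-116175360). RefSeq promoter windows were found for 7 of the 10 members. Shown here are the 250 bases before the start of the 3 ligands with the largest rise from resting basal interfollicular epidermis (IFE) to HF, from RefSeq on GRCm38.p6, at chr14:46390670-46390919 (minus strand), chr7:25686752-25687001 (plus strand) and chr1:186705990-186706239 (minus strand). Each window ends at the base before the GENCODE gene. Capitals mark CAGAC or its reverse complement GTCTG, the core of a SMAD-binding element.
Bmp4: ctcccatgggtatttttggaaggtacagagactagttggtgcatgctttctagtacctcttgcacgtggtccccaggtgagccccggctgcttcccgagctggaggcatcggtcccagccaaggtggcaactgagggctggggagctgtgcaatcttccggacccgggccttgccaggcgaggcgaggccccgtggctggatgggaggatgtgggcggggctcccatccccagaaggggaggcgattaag
Tgfb1: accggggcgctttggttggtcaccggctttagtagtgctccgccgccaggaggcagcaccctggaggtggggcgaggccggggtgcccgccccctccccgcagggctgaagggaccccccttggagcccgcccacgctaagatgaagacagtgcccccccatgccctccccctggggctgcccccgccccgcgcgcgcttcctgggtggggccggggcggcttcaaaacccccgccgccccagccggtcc
Tgfb2: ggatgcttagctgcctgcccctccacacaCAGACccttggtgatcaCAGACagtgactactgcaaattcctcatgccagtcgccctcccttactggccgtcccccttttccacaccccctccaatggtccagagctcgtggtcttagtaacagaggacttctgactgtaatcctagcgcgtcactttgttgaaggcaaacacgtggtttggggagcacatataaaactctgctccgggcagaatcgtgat

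Tgfb2 held CAGAC at 221 and 204 bases before its start, while neither these letters nor GTCTG were in the Bmp4 or Tgfb1 windows. The motif was in 42.2% of 32851 windows of the same length, counted on both strands. GGCGCC, the core of a Bmp-responsive SMAD element, was in 9.59% of all windows and in none of these 3. The windows differed in base composition, with GC contents of 63.2% for Bmp4, 75.2% for Tgfb1 and 53.6% for Tgfb2. A match is a run of letters and was not tested as a bound site.

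Each of the 10 genes had its own distribution over the 16 classes. Levels are in CPM, the UMIs of a gene scaled to the same total of UMIs in every class and mouse. They come from counts at the 3′ end, and no level is compared between genes. Bmp2 and Bmp7 were highest in the Shh-expressing HF cells, Tgfb2 in the other non-dividing HF cells, Tgfb1 and Tgfbr1 in Langerhans cell-like cells and Tgfbr2 in T cell-like cells. Bmp4, Id1 and Id3 were highest in dermal-like cells, as was Bmpr1a by its mean. The leading class of Bmp7 became the dermal-like one with doublets removed, under 5% mitochondrial UMIs or without mouse 2, and that of Bmpr1a the upper follicle-like one without mouse 1. The mean level in the highest class exceeded that in the lowest by 9.08-fold for Bmpr1a, the most even member, and by 215-fold for Bmp4, the most uneven. Ranked by mean, classes next to each other often could not be told apart, as the ranges of the 2 mice overlapped in 6 of 15 neighbouring pairs for Tgfb1 and in up to 11 of 15 for Bmp7, Bmpr1a and Id3.

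**Figure D1:**
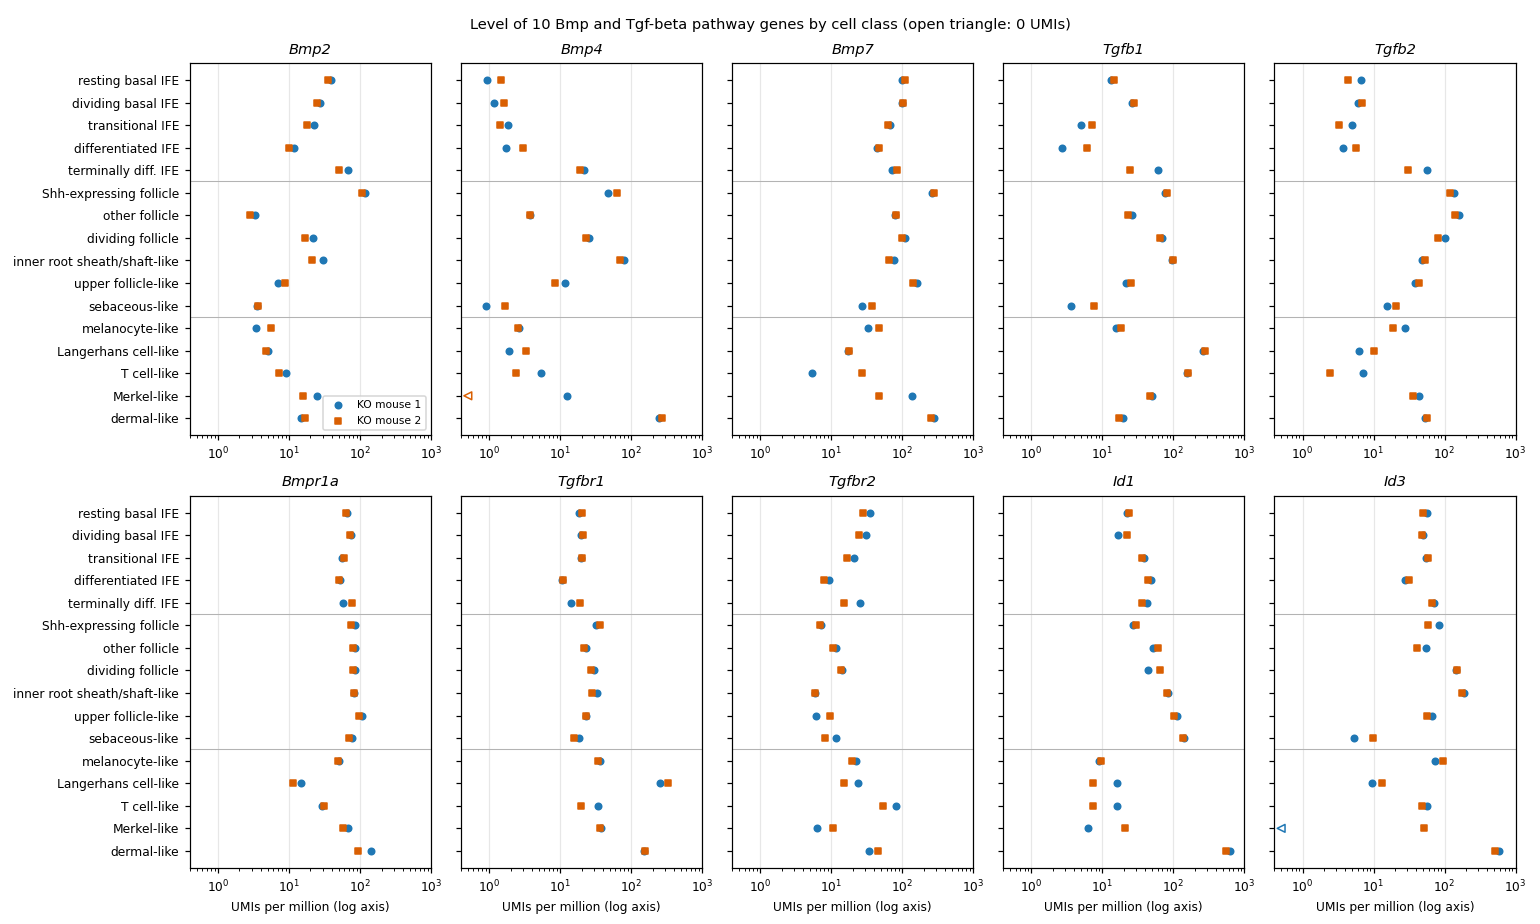
Level of each member (CPM, log axis) in 16 cell classes, with 1 point per mouse and open triangles for 0 UMIs. Points of both mice lie close together in most classes, with Bmp2 highest in Shh-expressing follicle cells at 118 and 105, Tgfb1 in Langerhans cell-like cells at 263 and 275, and Id1 in dermal-like cells at 618 and 547.

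Bmp2 is a ligand of many epithelial signalling centres. It reached 118 and 105 CPM in Shh-expressing HF cells (mouse 1, then mouse 2, here and below), 39.4 and 35.3 in resting basal IFE cells, and 3.31 and 2.85 in the other non-dividing HF cells, its lowest class. These 3 classes did not overlap. Terminally differentiated IFE cells stood at 68.0 and 51.0, from 19 and 27 UMIs.

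Bmp4, a ligand typical of skin mesenchyme, stood at 246 and 269 in dermal-like cells. Within the epithelium it was highest in inner root sheath and hair shaft-like cells (80.2 and 68.7), then Shh-expressing HF cells (46.6 and 63.4), and these classes did not overlap. Resting basal cells were lowest, at 0.920 and 1.48, or 13 and 38 UMIs. Ranked by mean, each of the IFE classes from resting basal to differentiated overlapped the next IFE class. Differentiated cells, at 1.70 and 3.01, did not overlap resting basal cells.

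Bmp7 was the most widespread ligand. It stood at 265 and 276 in Shh-expressing HF cells and 275 and 255 in dermal-like cells, which overlapped, and at 163 and 141 in upper follicle-like cells. Levels in resting basal IFE were 98.7 and 109, and its lowest class was the T cell-like one with 3 and 11 UMIs.

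Tgfb1 was highest in the immune classes, at 263 and 275 in Langerhans cell-like and 154 and 160 in T cell-like cells. Among KCs, the inner root sheath and hair shaft-like cells led with 94.5 and 98.5. Differentiated IFE cells were lowest with 2.71 and 6.03.

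Tgfb2 was highest in HF classes but was not limited to them. It stood at 159 and 142 in other non-dividing HF cells, 136 and 119 in Shh-expressing cells and 102 and 82.2 in dividing HF cells, each class clear of the next. Dermal-like cells, with 53.1 and 56.6, stood near inner root sheath and hair shaft-like cells, with 48.8 and 53.1. Upper follicle-like cells, with 38.0 and 43.4, overlapped terminally differentiated IFE cells, with 57.2 and 30.2. Resting basal IFE had 6.58 and 4.32, and levels in resting basal, dividing basal, transitional and differentiated IFE all lay between 3.23 and 6.90.

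Bmpr1a, a type I Bmp receptor, varied little among epithelial classes. Its level was 64.6 and 62.4 in resting basal IFE, 84.8 and 78.9 in other HF cells and 107 and 97.3 in upper follicle-like cells. Dermal-like cells had 140 and 93.5, from 29 and 33 UMIs, and overlapped the upper follicle-like class. Immune cells had the least, with 14.6 and 11.2 in the Langerhans cell-like class.

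Tgfbr1, the type I Tgf-beta receptor, stood at 256 and 327 in Langerhans cell-like cells and at 150 and 156 in dermal-like cells. All other classes lay at 37.3 or less. Tgfbr2, the type II receptor, showed another order, with 80.5 and 53.2 in T cell-like cells, 35.5 and 28.0 in resting basal IFE and 5.87 and 5.85 in inner root sheath and hair shaft-like cells. Langerhans cell-like cells, first for Tgfbr1, held 24.04 and 14.9 of Tgfbr2.

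Both Id genes stood far above all other classes in dermal-like cells, Id1 at 618 and 547 and Id3 at 579 and 521. Their orders then parted. Sebaceous-like cells were the next for Id1 (141 and 137) and the last for Id3 (5.37 and 9.86). Inner root sheath and hair shaft-like cells came next for Id3, with 190 and 175. Id1 was lowest in melanocyte-like cells, at 9.08 and 9.62, where Id3 stood at 73.9 and 94.96.

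The first comparisons followed IFE KCs from the resting basal layer outward, the path of differentiation that the study addressed. Fold changes come from 1 edgeR fit over 32 sums of UMIs (16 classes in 2 mice) and are on a TMM-scaled log2 scale, which corrects for the composition of each sum and need not equal the ratio of levels. A gene is called at an adjusted p under 0.05. From resting to dividing basal cells Bmp2 fell and Tgfb1 rose. From resting basal to transitional and differentiated cells Bmp2, Bmp7, Tgfb1 and Tgfbr2 fell and Id1 rose, and in differentiated cells Tgfbr1 and Id3 also fell and Bmp4 rose.

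**Figure D2:**
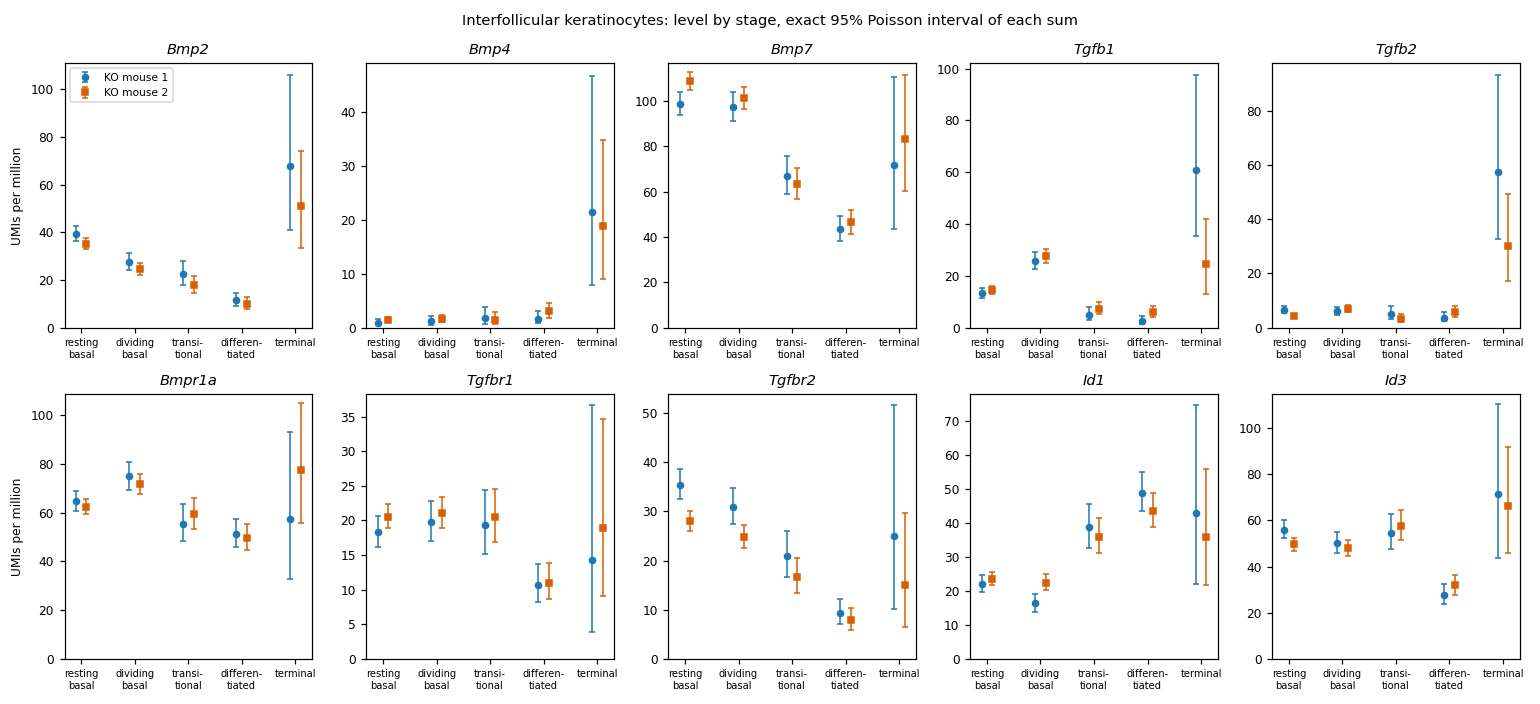
Level of each member (CPM, linear axis from 0) in 5 stages of IFE keratinocytes for each mouse, with exact 95% Poisson intervals that cover counting error only. Bmp2 goes from 39.4 and 35.3 in resting basal cells to 11.5 and 10.1 in differentiated cells while Id1 goes from 22.0 and 23.6 to 49.0 and 43.7, and the wide intervals of the terminal stage come from its 43 and 52 cells.

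Of the 10 members, 1 rose and 1 fell in dividing against resting basal cells, where 11.5% of 14264 genes tested were called higher and 7.54% lower. The median log2 fold change was -0.11 over the members and -0.01 over all genes tested. Bmp2 had 27.6 and 24.4 CPM in dividing cells, below both resting values (log2 fold change -0.64, SE 0.14, edgeR adjusted p = 0.000874). Its call was lost with clusters at resolution 1.2 (-0.44, adjusted p = 0.0563) and without the resting cluster led by Nfkbia (-0.37, adjusted p = 0.083). Tgfb1 rose from 13.4 and 14.6 to 25.9 and 27.6 (log2 fold change 0.82, SE 0.15, adjusted p = 0.000185). For both genes the 2 classes did not overlap. The summed level of 9 HF progenitor markers was 499 and 418 in dividing against 179 and 187 in resting basal cells. The 7 markers of Shh-expressing HF cells summed to 277 and 254 against 285 and 260. The part of HF RNA in the calls of this comparison, members and wider genes, was not tested. Tgfbr2 stood at 30.9 and 24.8 against 35.5 and 28.0, overlapping, with a log2 fold change of -0.31 and an adjusted p of 0.17, which became 0.0472 with the mouse as a block. Tgfb2 had 0.20 (adjusted p = 0.602), but 0.94 and a call at resolution 1.2 (adjusted p = 0.0109). The other members were not called, with log2 fold changes of 0.09 for Bmp4, -0.18 for Bmp7, 0.09 for Bmpr1a, -0.33 for Id1, -0.22 for Id3 and -0.05 for Tgfbr1. Over all genes, the block raised the number called here from 2716 to 4248.

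In transitional cells 1 member rose and 4 fell, against 9.51% of all genes higher and 10.8% lower. The median log2 fold change was -0.17 over the members and -0.04 over all genes. Tgfb1 fell the most, to 5.04 and 7.17 (log2 fold change -1.05, SE 0.23, adjusted p = 0.0011). Bmp2 fell to 22.5 and 17.9 (-0.80, SE 0.16, adjusted p = 0.000387). Both lay clear of their resting values. Tgfbr2 fell to 20.9 and 16.7 (-0.66, SE 0.18, adjusted p = 0.00696) and Bmp7 to 66.8 and 63.3 (-0.57, SE 0.15, adjusted p = 0.00692). Bmp7 lost its call without the Nfkbia-led cluster (-0.38, adjusted p = 0.0858), and Tgfbr2 lost it at resolution 1.2 (-0.52, adjusted p = 0.0587). Id1 rose to 38.7 and 36.0 (0.80, SE 0.17, adjusted p = 0.00102). Not called were Bmp4 (0.44), Bmpr1a (-0.04), Id3 (0.20), Tgfb2 (-0.30) and Tgfbr1 (0.13).

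Differentiated cells differed from resting basal cells in 8 members, 2 higher and 6 lower, where 25.2% of all genes were called higher and 24% lower, or 49.2% in all. The median log2 fold change was -0.59 over the members and -0.01 over all genes tested. Tgfbr2 fell the most among the members, to 9.33 and 7.83 (log2 fold change -1.64, SE 0.19, adjusted p = 2.24e-08). Bmp2 fell to 11.5 and 10.1 (-1.55, SE 0.17, adjusted p = 4.96e-09). For both genes the differentiated values lay below the transitional ones in both mice. Tgfb1 fell to 2.71 and 6.03 (-1.42, adjusted p = 6.77e-06), from 16 and 40 UMIs. Bmp7 fell to 43.4 and 46.4 (-0.97, adjusted p = 5.04e-06), and Tgfbr1 to 10.7 and 10.996 (-0.61, adjusted p = 0.00151). The latter had shown 19.4 and 20.4 in transitional cells, within its resting range.

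The Id genes parted in differentiated cells. Id1 rose to 49.0 and 43.7 (log2 fold change 1.25, SE 0.16, adjusted p = 2.09e-07), while Id3 fell to 27.8 and 31.9 (-0.58, SE 0.17, adjusted p = 0.00688). Krt79, an upper follicle marker, was among the 10 leading genes of the differentiated class. Upper follicle-like cells had Id1 at 113 and 102 and Id3 at 67.3 and 57.3, and their part in these changes was not tested. Bmp4 was called higher (1.14, SE 0.37, adjusted p = 0.0118) on 10 and 20 UMIs, a level of 1.70 and 3.01. Bmpr1a stood at 51.4 and 49.7 (-0.09, adjusted p = 0.498) and Tgfb2 at 3.73 and 5.72 (0.10, adjusted p = 0.8). At resolution 1.2 the log2 fold change of Tgfb2 was 0.93 and called (adjusted p = 0.0104).

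Of the 57 further pathway genes 51 passed the filter on low counts. In dividing basal cells 7 of these 51 rose and 6 fell, beside 11.5% and 7.54% of all genes. Their median log2 fold change was -0.08, or -0.019 with genes at 0 in an arm set to their bound of 3 counts. The ligand Tgfb3 rose from 4.53 and 5.18 to 17.1 and 14.9 CPM (log2 fold change 1.57, adjusted p = 2.01e-07). Ctgf, a Tgf-beta target, was 2.80 higher, the activin subunit Inhbb 1.99, the Bmp inhibitor Sostdc1 1.38 and the integrin Itgb8 1.15. Ltbp2, listed with the latency genes as a member of the latent Tgf-beta binding protein family, had 1 and 9 UMIs against 0 and 1. All but Tgfb3 of these 6 lost their calls at resolution 1.2, and there Itgb8 stood at -0.023.

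Transitional cells had 2 of the 51 higher and 11 lower, beside 9.51% and 10.8% of all genes. Their median was -0.36, or -0.25 with such genes at their bound. Cdkn2b, a cell cycle inhibitor induced by Tgf-beta, rose from 0.212 and 0.468 to 7.42 and 4.30 (log2 fold change 3.96, SE 0.43, adjusted p = 8.38e-08). The activin inhibitor Fst fell from 349 and 352 to 94.1 and 80.3 (-1.91, SE 0.27, adjusted p = 3.8e-06). Lower as well were Itgb8 (-1.69), the receptor Bmpr1b (-1.42), the decoy receptor Bambi (-1.36) and the latency protein Ltbp4 (-1.14).

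Differentiated cells had 8 of the 51 higher and 20 lower, with a median of -0.49, or -0.35 with such genes at their bound. Cdkn2b reached 24.1 and 26.1 (6.24, SE 0.33, adjusted p = 7.15e-15). Bmpr1b fell from 42.8 and 36.1 to 1.70 and 3.62 (-3.61, SE 0.25, adjusted p = 8.32e-13), unlike Bmpr1a. Fst fell by 3.01 and Ltbp4 by 2.83 on the log2 scale. Inhbb rose by 2.55, on 36 and 25 UMIs. By role, 5 of 9 receptors, 4 of 8 SMADs, 4 of 8 inhibitors and 3 of 7 latency genes fell, and 1, 0, 1 and 0 rose. Of 8 targets 3 rose and 2 fell, of 4 SMAD repressors and ubiquitin ligases 2 rose and 1 fell, and of 7 ligands 1 rose and 1 fell. Over all genes 25.2% rose and 24% fell.

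Resting basal cells were not uniform for the members. They formed 4 clusters, and these values are a description, since clusters of 1 mouse share its library. Tgfb2 stood at 31.1 and 13.5 in the cluster led by Pou3f1, against 3.44 or less in the other 3. That cluster held 77 and 65 of the 93 and 111 Tgfb2 UMIs of resting basal cells. Igfbp4 and Apoe, among its 10 leading genes, were also leading genes of a cluster of other non-dividing HF cells. Whether it holds HF cells was not tested. Bmp2 was highest in the Nfkbia-led cluster, at 49.7 and 52.1, against 37.6 or less elsewhere. Bmp7 was highest there too, at 127 and 137, and lowest in the H19-led cluster, at 66.4 and 79.1. Id3 was also lowest in the H19-led cluster (35.7 and 32.5). Fos and Jun, immediate early genes that also respond to tissue dissociation, stood at 1179 and 672 and at 2700 and 1952 in resting basal cells as a whole, and their part in these differences was not tested.

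In terminally differentiated against differentiated IFE cells 4 members were called higher and 0 lower (11.4% and 13.6% of all genes). At an unadjusted p under 0.05 edgeR gave 1 lower, Id1 (-0.67, adjusted p = 0.144). DESeq2 called 0 lower. Of all genes called 45.6% were higher, a share that moved to 57.8% with DESeq2 size factors and 64.0% with DESeq2. The median log2 fold change was 0.76 over the members and -0.04 over all genes. Bmp2 rose from 11.5 and 10.1 to 68.0 and 51.0 CPM (log2 fold change 2.01, SE 0.29, edgeR adjusted p = 3.57e-06). Tgfb1 rose to 60.8 and 24.6 (2.67, SE 0.41, adjusted p = 8.77e-06), Tgfb2 to 57.2 and 30.2 (2.66, SE 0.43, adjusted p = 1.91e-05) and Bmp4 to 21.5 and 18.9 (2.65, SE 0.53, adjusted p = 0.000317). Bmp4 rests on 6 and 10 UMIs. Id3 had 0.79 (adjusted p = 0.0602), called by DESeq2, with its size factors, without the filter and with only the classes compared. Also not called were Bmp7 (0.41), Bmpr1a (0.07), Tgfbr1 (0.28) and Tgfbr2 (0.73).

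Markers of other cells moved with these calls. The summed level of 9 HF progenitor markers was 1026 and 958 in the terminal class against 151 and 168 in differentiated cells, with all 9 detected in both classes. The 8 melanocyte markers summed to 272 and 370 against 23.2 and 86.5, and the 11 G2/M markers to 1638 and 1450 against 67.2 and 84.7. The 14 markers of terminal differentiation summed to 42670 and 49808. In a split made after the data were seen, 12 and 21 terminal cells had no UMI of Shh, Lhx2, Pmel, Dct or Mlana, and 31 and 31 had at least 1. The split itself sorts cells by HF and melanocyte RNA, so its 2 sides could differ by construction and it is a description only. Cells without these UMIs had the higher Lor, a marker of terminal differentiation, at 51275 and 30606 against 11694 and 6478. Krt10, a marker of differentiated cells, differed in direction between the mice, at 8152 and 2449 against 5791 and 5347. Bmp2 was higher in the cells without these UMIs, at 156 and 105 against 45.0 and 18.2. In mouse 1 the Bmp2 values rest on 9 and 10 UMIs, and their Poisson intervals overlapped. Tgfb1 stood the other way, at 17.4 and 4.99 against 72.0 and 36.5, and so did Tgfb2, at 0 and 4.99 against 72.0 and 45.6. Bmp4 was at 0 and 24.9 against 27.0 and 15.2. The cells without these UMIs held only 0 to 1 UMI of Tgfb1 or Tgfb2 in each mouse, and a level of 0 in mouse 1 allows up to 64.1. The part of the other cells' RNA in the calls was not tested.

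**Figure D3:**
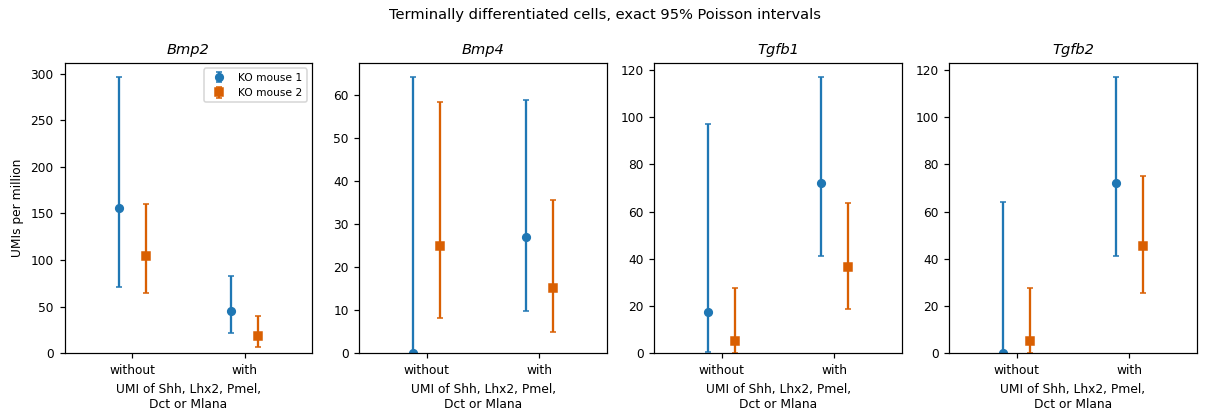
Level of 4 ligands (CPM, linear axis from 0) in terminally differentiated cells without and with a UMI of 5 marker genes of follicle cells and melanocytes, for each mouse with exact 95% Poisson intervals. Bmp2 is the higher in the cells without such a UMI (156 and 105), and Tgfb1 and Tgfb2 are the higher in those with one. The intervals overlap in mouse 1 for Bmp2 and in both mice for Tgfb1 and Tgfb2.

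Among the 51 wider genes 9 were higher and 2 lower in the terminal class, beside 11.4% and 13.6% of all genes. Their median was 0.41. Cdkn2b fell from 24.1 and 26.1 to 7.15 and 3.78 (-2.73, SE 0.59, adjusted p = 0.000802), on 2 and 2 UMIs. Higher were Tgfb3 (2.49), Ltbp1 (2.27), the target Msx2 (2.03), the receptor Acvr2b (1.97) and Ltbp4 (1.94). Acvr2b lost its call at resolution 1.2.

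Non-dividing HF cells differed from resting basal IFE cells in 8 members, with 6 higher and 2 lower, where 17.3% and 16.6% of all genes were called in these directions. The median log2 fold change was 0.34 over the members and 0.00 over all genes. Tgfb2 and Bmp4 were far higher in the HF and Tgfb1 was higher, whereas Tgfbr2 was lower. HF cells here are the unweighted mean, on the log2 scale, of the Shh-expressing and the other non-dividing HF class. Bmp2 was called lower in that mean, which joins 118 and 105 CPM in Shh-expressing cells with 3.31 and 2.85 in other HF cells. Resting basal cells had 39.4 and 35.3, so the Bmp2 call is not a statement about pooled HF cells. Non-dividing is a name given by a threshold. The 13 S-phase markers summed to 1546 and 1610 in Shh-expressing, 680 and 816 in other HF and 567 and 664 in resting basal cells. Dividing basal cells had 1397 and 1447 and dividing HF cells 1770 and 1903. By these markers the Shh-expressing cells, named non-dividing, lay above dividing basal cells in both mice. The 11 G2/M markers summed to 329 and 293 in Shh-expressing, 157 and 183 in other HF and 75.9 and 99.1 in resting basal cells. Dividing HF cells had 2284 and 2021. The part of the cell cycle in these comparisons was not tested.

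**Figure D4:**
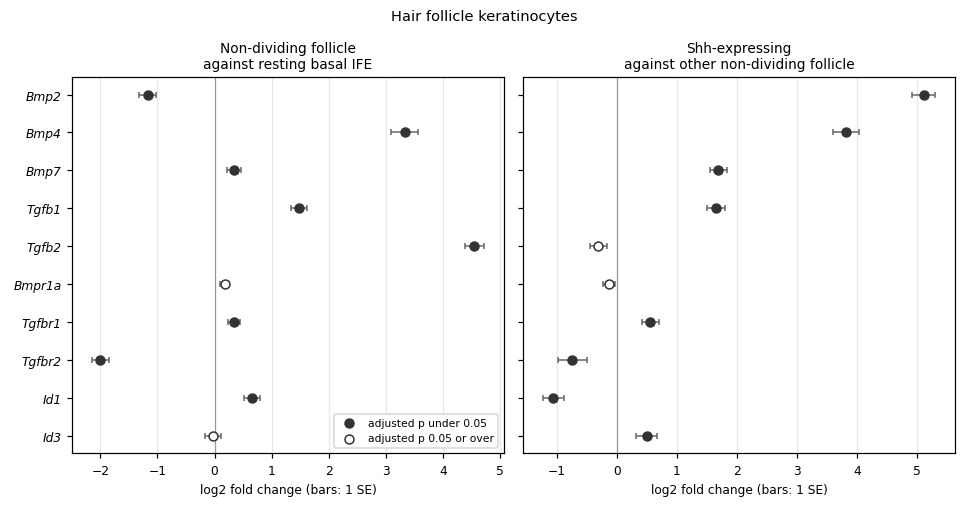
Log2 fold change of each member with bars of 1 SE, for non-dividing follicle against resting basal IFE cells and for Shh-expressing against other non-dividing follicle cells. Filled points have an adjusted p under 0.05, with Tgfb2 at 4.55 on the left and Bmp2 at 5.11 on the right.

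Tgfb2 was 23.4-fold higher in HF cells (log2 fold change 4.55, SE 0.17, edgeR adjusted p = 1.22e-17), with HF values from 119 to 159 against 6.58 and 4.32 in resting basal cells. Bmp4 was 10.1-fold higher (3.33, SE 0.24, adjusted p = 3.21e-12), but its 2 HF classes lay apart, as shown next. Tgfb1 was 2.78-fold higher (1.48, SE 0.14, adjusted p = 7.77e-10). Id1 rose by 0.66 (SE 0.14, adjusted p = 0.000584), Tgfbr1 by 0.34 (adjusted p = 0.0178) and Bmp7 by 0.34 (adjusted p = 0.0373), whose call was lost at resolution 1.2 (0.33, adjusted p = 0.0508). For Bmp7 the HF classes lay on either side of resting basal cells (98.7 and 109), with 265 and 276 in Shh-expressing and 78.5 and 80.4 in other HF cells.

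Tgfbr2 fell by 2.00 (SE 0.15, adjusted p = 8.95e-12), from 35.5 and 28.0 to 7.18 and 6.84 in Shh-expressing and 11.7 and 10.7 in other HF cells. The ligand Tgfb2 and the receptor Tgfbr2 differed in opposite directions. Bmp2 fell by 1.17 (SE 0.14, adjusted p = 8.8e-08) in the log2-scale mean of the HF classes. However, 1 of them, the Shh-expressing cells, lay above resting basal cells in both mice. Id3 (-0.03, adjusted p = 0.912) was not called. Bmpr1a had 0.18 (adjusted p = 0.106), and it was called with the mouse as a block (0.17, adjusted p = 0.00797).

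Of the 51 wider genes 21 were higher and 7 lower in the HF, beside 17.3% and 16.6% of all genes. Their median log2 fold change was 0.33. Ctgf rose from 1.42 and 0.935 to 29.7 and 17.2 in Shh-expressing and 17.2 and 13.6 in other HF cells (log2 fold change 3.87, SE 0.29, adjusted p = 9.96e-12). The latency protein Ltbp1 rose from 3.11 and 2.88 to between 36.0 and 50.5 (3.63, SE 0.17, adjusted p = 5.66e-16). Bmpr1b fell by 3.26 (SE 0.18, adjusted p = 9.82e-15) and Tgfbi, a matrix target of Tgf-beta, by 3.21 (SE 0.15, adjusted p = 4.19e-16), from 279 and 212 to between 19.8 and 41.8. The Bmp inhibitor Chrd was called higher on 15 and 28 UMIs in Shh-expressing cells against 1 and 3 in resting basal cells. Ltbp2 was called higher on 72 and 107 UMIs in other HF cells against 0 and 1. Targets split, with 4 of 8 higher and 1 lower.

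Within the HF, Shh encodes a signal that growing follicles make. Against the other non-dividing HF cells, Shh-expressing cells showed 6 members higher and 2 lower, where 14.4% and 15% of all genes were called in these directions, or 29.5% in all. The median was 0.53 over the members and 0.00 over all genes. Bmp2 was 34.5-fold higher (log2 fold change 5.11, SE 0.19, edgeR adjusted p = 1.43e-17), at 118 and 105 against 3.31 and 2.85. The lower values rest on 21 and 27 UMIs. Bmp4 was 14.1-fold higher (3.82, SE 0.21, adjusted p = 3.32e-14), at 46.6 and 63.4 against 3.78 and 3.70. Bmp7 was 3.23-fold higher (1.69, SE 0.15, adjusted p = 3.65e-10), at 265 and 276 against 78.5 and 80.4. For all 3 Bmp ligands the 2 classes did not overlap. Shh-expressing cells also had the higher sums of S-phase and G2/M markers, given above, and the part of the cell cycle was not tested.

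Tgfb1 was also higher, by 1.65 (SE 0.16, adjusted p = 1.31e-09), at 76.3 and 82.2 against 25.7 and 22.6, and Tgfbr1 by 0.56 (SE 0.14, adjusted p = 0.00273). Id1 went against the Bmp ligands and fell by 1.06 (SE 0.17, adjusted p = 2.01e-05), from 51.7 and 61.4 to 26.8 and 30.1. This fall is against the joined class of other HF cells, whose 2 clusters differed in Id1, as described next. Tgfbr2 fell by 0.74 (SE 0.24, adjusted p = 0.0171). Id3 was called higher (0.49, SE 0.17, adjusted p = 0.0291) at 83.0 and 59.5 against 54.1 and 41.4, but at resolution 1.2 its log2 fold change was -0.37 (adjusted p = 0.116). Tgfb2 had -0.31 (adjusted p = 0.119), called with the mouse as a block (adjusted p = 0.00523). Bmpr1a had -0.13 (adjusted p = 0.396).

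The other non-dividing HF class joined 2 clusters that differed in the members. The cluster led by Apoe and Ncam1 held Tgfb2 at 205 and 197, against 79.9 and 52.3 in the cluster led by S100a6 and Sfrp1. Bmp7 stood at 108 and 103 against 28.3 and 43.7, and Id1 at 69.4 and 78.0 against 22.0 and 34.3. Tgfb1 had the reverse order, with 21.6 and 15.7 against 32.5 and 33.8. Neither cluster overlapped the other in these 4 genes, and Bmp2 stayed at 3.804 or less in both. Id1 of the Shh-expressing cells (26.8 and 30.1) lay below the cluster led by Apoe and Ncam1 but overlapped the other. Their Tgfb2 (136 and 119) lay between the 2 clusters in both mice.

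Of the 51 wider genes 12 were higher and 18 lower in Shh-expressing cells, beside 14.4% and 15% of all genes. Their median was 0. Sostdc1, which binds Bmps outside the cell, fell from 766 and 623 to 73.8 and 71.9 (log2 fold change -3.33, SE 0.24, adjusted p = 9.08e-12). Id4, another Id gene, fell from 36.1 and 38.1 to 4.95 and 2.19 (-3.59, SE 0.28, adjusted p = 2.58e-11), as Id1 did. Inhbb fell by 3.13 (SE 0.33, adjusted p = 1.3e-08). The Bmp inhibitor Nog was called lower on 2 and 2 UMIs against 18 and 18, and Chrd higher on 15 and 28 against 3 and 3. Ltbp2 had 2 and 0 UMIs against 72 and 107. Of the 7 latency and activation genes, 6 fell and 0 rose, and at the same time 4 of 8 inhibitors fell and 2 rose.

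Melanocyte-like cells were compared with KCs, here the log2-scale mean of resting basal IFE and non-dividing HF cells, as were the next classes. The 3 comparisons share these KC sums. In melanocyte-like cells 2 members were higher and 6 lower, where 27.6% of all genes were higher and 26.4% lower. The median was -0.65 over the members and -0.03 over all genes. Bmp2 fell by 2.57 (SE 0.19, edgeR adjusted p = 1.2e-12), to 3.46 and 5.60, and Id1 by 1.81 (SE 0.19, adjusted p = 1.5e-09), to 9.08 and 9.62. Bmp7 fell by 1.70 (SE 0.14, adjusted p = 1.62e-11), to 33.3 and 47.4. Lower by less were Bmp4 (-0.85, adjusted p = 0.0136), Tgfb1 (-0.65, adjusted p = 0.000528) and Bmpr1a (-0.65, adjusted p = 3.28e-07). The KC mean joins unlike classes, and melanocyte-like cells lay above resting basal cells in both mice for Bmp4 (2.59 and 2.56 against 0.920 and 1.48) and Tgfb1 (15.3 and 18.4 against 13.4 and 14.6), and above the other HF class for Bmp2.

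Id3 rose by 0.51 (SE 0.13, adjusted p = 0.00176) and Tgfbr1 by 0.49 (SE 0.11, adjusted p = 0.000382), although both overlapped the Shh-expressing HF cells. Tgfbr2 had 0.20 (adjusted p = 0.28). Tgfb2 had -0.35 (adjusted p = 0.0672) with 28.1 and 19.1, and it was called with the mouse as a block (adjusted p = 0.026), without the filter (-0.35, adjusted p = 0.0299), at -0.87 with doublets removed and at -0.92 without the dividing melanocyte-like cluster. KC RNA was present in the class, since Krt14 stood at 856 and 1277 against 14225 and 14700 in resting basal cells, and its part in the low Bmp2 and Bmp7 levels was not tested.

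Among the 51 wider genes 7 were higher and 28 lower, beside 27.6% and 26.4% of all genes. Their median was -0.72, or -0.67 with genes at 0 set to their bound. Eng, a co-receptor, had 135 and 246 UMIs (29.2 and 29.95 CPM) and rose by 5.15 (SE 0.23, adjusted p = 1e-17). Id2 rose by 3.68 (SE 0.14, adjusted p = 1.16e-19), to 111 and 123 from 9.13 and 6.04 in resting basal cells. The Id genes again parted, with Id2 and Id3 higher and Id1 lower. Smad9 was called higher on 9 and 10 UMIs against 0 and 5 in resting basal cells. Fst fell by 2.97 (SE 0.26, adjusted p = 4.48e-11), and Nog, which had 0 UMIs in either mouse, was also called lower.

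Langerhans cell-like cells carried the highest Tgfb1 and Tgfbr1 of all classes. In this class 2 members were higher and 6 lower, where 26.2% of all genes were higher and 24.8% lower. The median was -1.27 over the members and -0.13 over all genes. Tgfbr1 was 15.3-fold higher than in KCs (log2 fold change 3.93, SE 0.10, edgeR adjusted p = 3.37e-24), at 256 and 327. Tgfb1 was 13.2-fold higher (3.72, SE 0.12, adjusted p = 1.27e-21), at 263 and 275. Both genes lay above every KC value in both mice. Tgfbr2 had 0.46 (adjusted p = 0.0791) and was called under 4 alternatives, with DESeq2, its size factors, doublets removed and resolution 1.2, at 0.58 to 0.60.

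Bmp2, Bmp7 and Bmpr1a were called lower in Langerhans cell-like cells, whereas Bmp4 was not called. Bmp7 fell by 2.54 (SE 0.21, adjusted p = 1.13e-11), to 17.1 and 17.7, Bmpr1a by 2.21 (SE 0.15, adjusted p = 2.74e-13) and Bmp2 by 2.15 (SE 0.28, adjusted p = 1.81e-07), to 5.06 and 4.65. Id3 fell by 1.98 (SE 0.26, adjusted p = 1.57e-07), Tgfb2 by 1.37 (SE 0.29, adjusted p = 0.000169) and Id1 by 1.18 (SE 0.26, adjusted p = 0.000409). These are changes against the KC mean. Tgfb2, at 6.33 and 10.2, was not below resting basal cells (6.58 and 4.32), and Bmp2 lay above the other HF class (3.31 and 2.85). Bmp4 had -0.40 (adjusted p = 0.519), at 1.90 and 3.25 against 0.920 and 1.48 in resting basal cells. With doublets removed Bmp4 had -2.36 and was called (adjusted p = 0.0142). Krt14 stood at 883 and 1412 in the class, and 8.97% and 11.4% of its cells were scored as doublets.

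The 51 wider genes showed 7 higher and 23 lower, beside 26.2% and 24.8% of all genes. Their median was -1.16, or -0.55 with genes at 0 in an arm set to their bound of 3 counts. Id2 rose by 5.52 (SE 0.14, adjusted p = 7.19e-24), to 369 and 272, while Id1 and Id3 fell. Tgfbi rose by 3.00 (SE 0.13, adjusted p = 7.34e-18), to 588 and 538. Bmpr1b fell by 3.02 (SE 0.50, adjusted p = 6.89e-06), on 3 and 2 UMIs, Fst by 2.84 (SE 0.29, adjusted p = 1.85e-09) and the Bmp inhibitor Nbl1 by 2.53 (SE 0.20, adjusted p = 7.74e-12). Id4 was called lower on 2 and 0 UMIs.

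Dermal-like cells, which numbered 39 and 67 at median depths of 4094 and 4330 UMIs, showed 5 members higher and 0 lower, where 11.6% of all genes were higher and 11.4% lower. The median was 0.82 over the members and -0.20 over all genes. Of all genes called 50.5% were higher, a share that moved to 67.4% with DESeq2 size factors and 74.4% with DESeq2. At an unadjusted p under 0.05 edgeR gave 1 member lower, Bmp2, and DESeq2 called 0 lower. Bmp2 and Tgfb1 had negative values that were not called (-1.08, adjusted p = 0.0678, and -0.84, adjusted p = 0.203). Bmp4 was 46.4-fold higher than in KCs (log2 fold change 5.54, SE 0.22, edgeR adjusted p = 3.06e-18). Id1 was 14.6-fold higher (3.87, SE 0.16, adjusted p = 1.06e-17) and Id3 7.64-fold (2.93, SE 0.17, adjusted p = 2.09e-14). Bmp4, Id1 and Id3 stood highest in the same cells. Tgfbr1 rose by 2.35 (SE 0.19, adjusted p = 4.19e-11) and Bmp7 by 0.72 (SE 0.18, adjusted p = 0.00384), although Bmp7 overlapped the Shh-expressing HF cells.

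Tgfbr2 had 0.93 (adjusted p = 0.0605), and was called with the mouse as a block (adjusted p = 0.0465). Tgfb2 had 0.67 (adjusted p = 0.178) and Bmpr1a 0.27 (adjusted p = 0.344). DESeq2 called 8 members, adding these 3. Scrublet scored 10.3% and 16.4% of dermal-like cells as doublets, and without them the mean levels were 331 for Bmp4, 697 for Id1 and 708 for Id3, higher than with them. Krt14 stood at 2342 and 2506.

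Wider genes had 16 higher and 7 lower, with a median of 0.48, or 0.58 with genes at 0 set to their bound, against -0.20 over all genes. Several ligands and inhibitors had few UMIs in KCs. Gdf10 had 89 and 154 UMIs (430 and 436 CPM) against 0 and 1 in resting basal cells and 0 in both HF classes of both mice. Bmp3 had 103 and 153 UMIs, Inhba 172 and 244, Nog 23 and 28, Chrd 6 and 6 and Gdf11 5 and 6. By role, 4 of 7 ligands were higher and 0 lower, and 3 of 8 inhibitors were higher and 2 lower, beside 11.6% and 11.4% of all genes. Dermal-like cells were the class with both the highest Bmp4 level and the highest level of the Bmp inhibitor Nog, at 111 and 79.3.

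**Figure D5:**
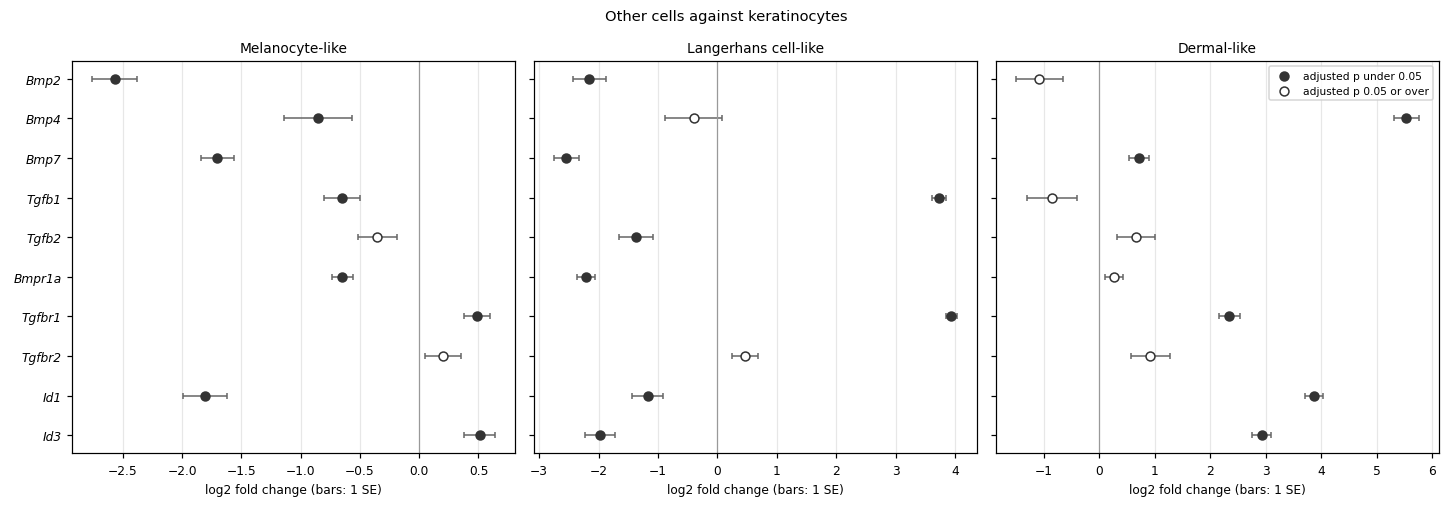
Log2 fold change of each member against keratinocytes, with bars of 1 SE, for melanocyte-like, Langerhans cell-like and dermal-like cells, each panel with its own axis. Filled points have an adjusted p under 0.05. Tgfb1 and Tgfbr1 stand at 3.72 and 3.93 in Langerhans cell-like cells, and Bmp4 and Id1 at 5.54 and 3.87 in dermal-like cells.

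Shares of cells with a UMI gave most members the same leading class as the levels. Tgfb2 had its highest share in Shh-expressing HF cells, thinned or not, Bmp7 had its highest thinned share in dermal-like cells, and Bmpr1a had its highest unthinned share in upper follicle-like cells. To set classes of unequal depth side by side, each cell was thinned to 3000 UMIs, which left out 21 and 13 terminally differentiated cells, 5 and 66 resting basal cells and 2 and 4 dermal-like cells as too shallow. Bmp2 was then seen in 26.1% and 24.6% of Shh-expressing HF cells, against 0.376% and 0.721% of other HF cells. In Langerhans cell-like cells, set beside them for this KC ligand, the shares were 0.694% and 0% (0 of 193 cells, upper bound of the exact 95% binomial interval 1.89%). Other HF cells lay below that share in mouse 1 (0.376% against 0.694%). In mouse 2 they lay above it (0.721% against 0%) but below its upper bound. The Langerhans cell-like class held 8.97% and 11.4% scored doublets, so its shares do not measure free RNA alone. Unthinned shares were 52.9% and 50.3% for the Shh-expressing class (median depths 9913 and 9619 UMIs) and 3.45% and 4.66% for the Langerhans cell-like class (9639 and 9802).

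Tgfb1 was seen in 57.6% and 53.9% of thinned Langerhans cell-like cells against 0.755% and 1.98% of differentiated IFE cells (85.5% and 92.7% against 4.51% and 9.45% unthinned). Bmp4 was seen in 51.4% and 55.6% of thinned dermal-like cells, in 20.3% and 15.8% of inner root sheath and hair shaft-like cells, and in 0.269% and 0.228% of resting basal cells (69.2% and 64.2%, 52.3% and 48.3%, and 0.871% and 1.41% unthinned). Intervals and bounds cover counting error only.

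Members did not rank alike. Across the 32 sums the correlation of log2 levels between 2 members went from -0.50 for Bmpr1a and Tgfb1 to 0.78 for Bmp7 and Bmpr1a. Bmp4 and Id3 had 0.74, Bmp4 and Id1 0.64, Id1 and Id3 0.53, and Tgfb1 and Tgfbr1 0.51. Bmp2, in contrast, had -0.09 with Id1 and 0.24 with Id3. The 2 Tgf-beta receptors had 0.22. These are descriptions, since sums of 1 mouse share a library and depth.

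The genes whose pattern was most like a member's, over the same 32 sums, were Lrp4 (r = 0.858), Fras1 and Kremen2 for Bmp2, and Scube3 (0.960), Lhfp and Gm15222 for Bmp4. For Bmp7 they were Rgs12 (0.903), Flrt3 and Gtf2ird1, and for Bmpr1a R3hcc1 (0.888), Zfp280d and Fyttd1. Id1 was most like Ammecr1 (0.903), Hoxa9 and Atf5, and Id3 most like Msantd2 (0.895), Srek1 and Stoml1. Tgfb1 came nearest to Limd2 (0.895), Orai2 and Tnf, and Tgfb2 to Lingo1 (0.870), Ptprk and Sh3rf1. Tgfbr1 was most like Slc41a3 (0.942), Ptpro and Ccdc109b. Tgfbr2 was most like Zfp652 (0.863), Atp8b2 and Itgav, the last of which encodes an integrin subunit that helps to activate latent Tgf-beta. No member was among the 3 genes most like another.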

How the data were processed

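Gene counts per cell barcode (UMI counts), deposited by the authors for each of the 2 mice, had been made with Cell Ranger 3.0.2 on mm10 according to the submitters' processing notes. They are not normalized. A cell was used if it had between 900 and 7700 genes detected and a mitochondrial share below 10%. The libraries were integrated and clustered with Seurat 5.3.0 (2000 variable genes, 30 dimensions, resolution 0.8) at 2 levels, without the members and the 57 wider pathway genes, and clusters were named from marker lists. Naming thresholds were set after the clusters had been seen. Cells that scrublet, run in scanpy 1.11.5, called doublets (2.16% and 4.21%) were kept, with their removal as an alternative. The members, lists and tests were chosen with earlier results of these data known.

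UMIs were summed per class and mouse. The quasi-likelihood test of edgeR 4.0.16 (R 4.3.3, TMM, filterByExpr) was fitted to all 32 sums, and p-values were adjusted by Benjamini-Hochberg over 14264 genes. The step was tested on simulated data for the recovery and size of set changes in well-counted genes. Those data held no mouse effect, so pairing, false calls and genes of low counts were not checked. Cells are not replicates, so n is 2 mice. Sums of a class in mouse 1 and mouse 2 pair with the other classes because the same animal gave them: over 120 pairs of classes the correlation of the difference between mice went from 0.00739 to 0.631 (median 0.160), and 78 were over 0.1. A fit with the mouse as a block was therefore an alternative, beside DESeq2 1.42.0, DESeq2 size factors, no filter, resolution 1.2 and only the classes compared. Named were all 10 members in each comparison and up to 6 called genes of the wider list with the largest changes. Some genes of that list are not reported here by name. Genes most like a member had the highest Pearson r of log2(CPM + 10), 3 for each. Library totals of kept cells were 95048258 and 148843409 UMIs. Intervals are exact at 95% and cover counting error only.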

Additional observations from a re-analysis of the deposited data

How the results depend on the processing

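Of the 90 member values, 84 kept their direction and side of the threshold with DESeq2, 87 with its size factors, 88 without the filter, 87 with only the classes compared, 87 with doublets removed, 85 with the mouse as a block and 82 at resolution 1.2. The number of genes called between dividing and resting basal cells went from 2716 to 4248 with the mouse as a block and to 1723 at resolution 1.2, and the members called in dermal-like cells went from 5 to 8 with DESeq2. At resolution 1.2 Id3 between the HF classes had -0.37 and Itgb8 in dividing basal cells -0.023. The cause was not tested. The mouse block changed no member call beyond the 5 given with their comparisons, nor any of the 54 calls of wider genes. Without replicate 1 or without replicate 2, with no test, 9 and 9 of 10 members kept the class with the highest level, while 26 and 28 of the 90 member fold changes moved by more than the spread between the mice, as did 23 and 22 of the 54 of named wider genes. DESeq2 size factors moved the median of all genes in dermal-like cells from -0.20 to 0.00, and no member turned direction with them. Leaving out the Nfkbia-led resting cluster, chosen after seeing the data, gave Tgfbr2 -0.47 in dividing basal cells (edgeR adjusted p = 0.0296). Depth limits the Merkel-like (160765 and 192457 UMIs), dermal-like (207118 and 353102) and terminally differentiated (279610 and 529489) classes.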

Other observations

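Cells left unnamed, 760 in mouse 1 and 1215 in mouse 2, had Bmp7 at 107 and 102 CPM (UMIs scaled to a common total), Id3 at 90.0 and 71.6, Bmpr1a at 83.1 and 73.1 and Tgfb2 at 66.3 and 57.5. Their Bmp2 level was 18.05 and 21.4 and their Bmp4 level 6.09 and 10.4. Scrublet called 6.32% and 14.8% of them doublets. Merkel-like cells, which numbered 19 and 20, had Bmp7 at 137 and 46.8 and Id3 at 0 and 52.0, with Bmp4 seen in mouse 1 only.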
